A study of Drosophila melanogaster with 32 samples.

Results

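The effect of the Smurf state on gene expression was compared between young and old flies. Smurfs are flies whose intestine lets an ingested blue food dye (FD&C #1) spread through the body, and non-Smurfs are flies of the same age that were given the dye and kept it in the gut. RNA was sequenced from pools of whole mated Drosophila melanogaster females of a line that carries the Drs-GFP reporter, so all samples share that background and each holds the whole body of several flies. The comparison used 20 of the 32 samples of the series, chosen by age alone: 4 non-Smurf and 4 Smurf samples of 20 days, and 6 non-Smurf and 6 Smurf samples of 40 days. The 10 samples of 30 days, 5 non-Smurf and 5 Smurf, served as an independent reference. Smurfs and non-Smurfs of an age were collected on the same occasions, 1 day after the transition (samples 1d), 5 hours after it (samples 5h, only at 30 and 40 days) or as a mixed collection (samples M). Collection time was therefore partly tied to age, and the flies came from a single synchronous population kept in vials, with no word on which vials fed which pool, so p-values measure the spread between these pools.

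The Smurf state marks the last phase of a fly's life and is known for a leaky gut, a systemic innate immune response, low food intake and loss of energy stores. In flies the immune response runs through the Toll and Imd pathways, which switch on antimicrobial peptide genes in the fat body, while the JAK-STAT cytokine Upd3 signals damage in the gut. Digestive enzymes are made by the gut epithelium, and yolk proteins by the fat body and the ovary. In whole flies fewer cells of a type and less RNA per cell cannot be told apart.

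The question was whether the same genes separate Smurfs from non-Smurfs at 20 and at 40 days. The Smurf effect is the log2 fold change (log2FC) of Smurfs over age-matched non-Smurfs, and the interaction is the effect at 40 days minus the effect at 20 days. A positive interaction means that the gene lay higher in Smurfs, relative to non-Smurfs, at the later age. Levels are given as CPM (counts scaled to library size by TMM normalisation), and a gene is said to be called where its edgeR quasi-likelihood test passed a Benjamini-Hochberg adjusted p of 0.05. Library totals of the 20 samples lay between 12164198 and 20753029 counts assigned to genes, with a median of 16385288, and 10318 genes had enough counts to be tested. Replicates were more scattered in old flies: the median SD of log2 CPM over genes was 0.124 and 0.111 in 20-day non-Smurfs and Smurfs against 0.191 and 0.196 at 40 days. As a check of the female label, 16 male-specific genes summed to between 2.40 and 11.0 CPM in every sample of 20 to 40 days.

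The 30-day samples give a yardstick that owes nothing to the 20- and 40-day samples. At 30 days 306 genes were called higher in Smurfs, 3.01% of the 10160 tested, and 212 lower, 2.09%. A Smurf score was taken as the mean log2 CPM of the 305 higher genes that were also tested at 20 and 40 days, minus that of the 212 lower genes. The 20-day non-Smurfs scored −1.35, −1.42, −1.25 and −1.16, and the 20-day Smurfs 1.29, 0.824, 0.657 and 1.27. The 6 non-Smurfs of 40 days scored between −0.918 and −0.444, with a median of −0.537. The 40-day Smurfs scored −0.327 (1d-p), 0.684 (1d-q), 1.34 (1d-r), −0.407 (5h-c7), −0.439 (5h-c8) and 0.159 (M-16). Thus old non-Smurfs lay above every young non-Smurf, and old Smurfs spread from the edge of their own controls to the level of young Smurfs. The 5-hour Smurfs c8 and c7 and Smurf 1d-p, called the 3 low-scoring Smurfs from here on, lay just above the highest 40-day non-Smurf. These libraries stood apart from the other Smurfs, and several results are given below with and without them. The study itself set them apart for their position among non-Smurfs, so leaving them out is a choice made on the outcome.

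**Figure D1:**
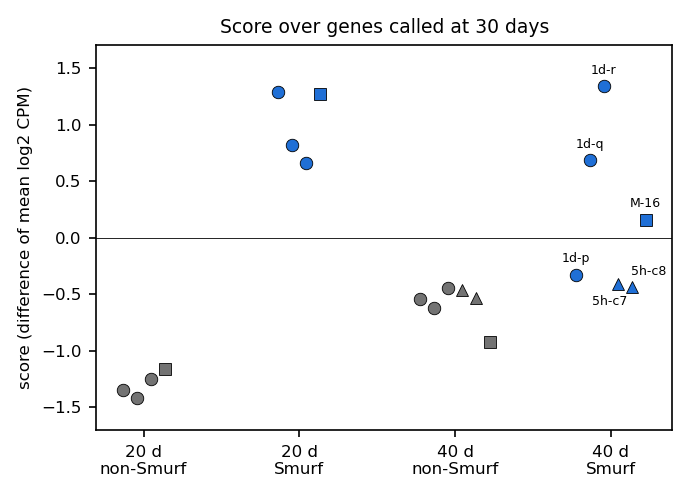
Score of the genes called at 30 days (mean log2 CPM of 305 higher genes minus that of 212 lower genes, vertical axis) in each sample of 20 and 40 days, by group. The 20-day groups are far apart, from −1.16 downwards against 0.657 upwards, whereas the 40-day Smurfs start at −0.439, next to the highest 40-day non-Smurf at −0.444.

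Most genes of the 30-day signature kept their direction at 40 days with a smaller effect. The 305 higher genes had a median Smurf effect of 0.76 at 20 days, 0.71 at 30 days and 0.33 at 40 days, and the effect was smaller at 40 than at 20 days for 277 of them. Their median difference of 40 against 20 days was −0.04 in Smurfs and 0.37 in non-Smurfs, so the old controls lay nearer to the Smurfs. The 212 lower genes had medians of −0.92, −0.92 and −0.18, with a smaller effect at 40 days for 205 of them. Here the median difference of 40 against 20 days was 0.61 in Smurfs and −0.09 in non-Smurfs. At 40 days the sign was that of 30 days in 296 of the 305 and in 177 of the 212 genes. Over all genes tested the medians were 0.04 at 20 days and 0.01 at 40 days. Without the 3 low-scoring Smurfs the 40-day medians were 0.44 and −0.40, and the difference of the lower genes in Smurfs was 0.18.

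**Figure D2:**
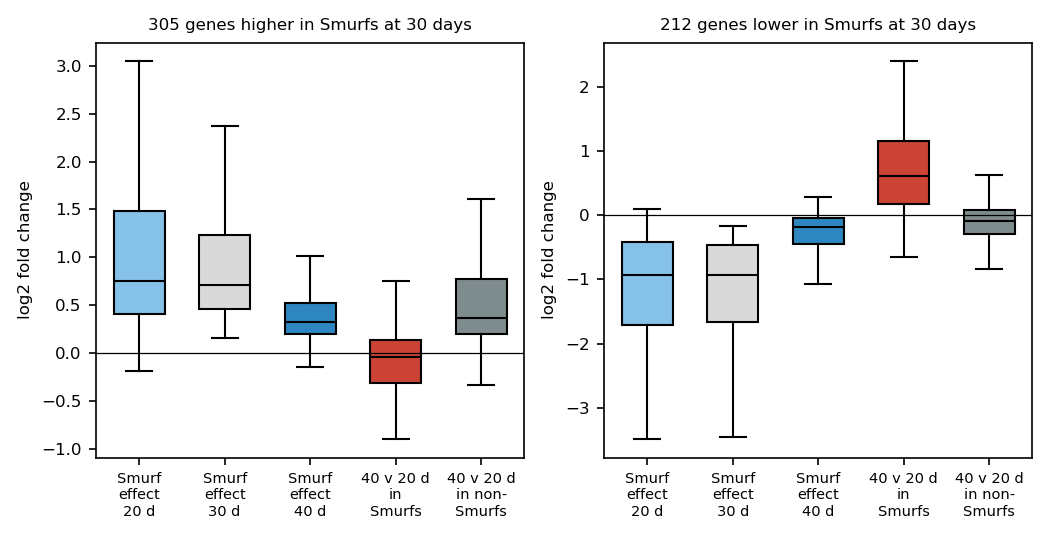
Log2 fold changes of the 305 genes called higher and the 212 genes called lower in Smurfs at 30 days: the Smurf effect at 20, 30 and 40 days and the 40 against 20 days difference within Smurfs and within non-Smurfs. Lines in the boxes are medians, boxes hold the middle of the genes between the quartiles, and outlying genes are not drawn. The medians of the Smurf effect fall to 0.33 and −0.18 at 40 days, and the medians of 40 against 20 days stand at 0.37 in non-Smurfs for the higher genes and at 0.61 in Smurfs for the lower genes.

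At 20 days 461 genes were called higher in Smurfs, 4.47% of those tested, and 560 lower, 5.43%; with RLE size factors the split was 365 higher to 712 lower. At 40 days no gene was called, 0% of 10318, although 966 genes (9.36%) had an unadjusted p under 0.05, 621 of them higher in Smurfs and 345 lower; DESeq2 called 57. The interaction called 2 genes, 0.0194%, and had an unadjusted p under 0.05 for 1323 genes, 12.8%, of which 778 (7.54%) were positive and 545 (5.28%) negative. DESeq2 called 256 genes for the interaction, 2.48% of the 10313 it tested, 224 positive and 32 negative. The count for the interaction thus depended strongly on the tool and on single libraries: it was 102 without 40-day Smurf 1d-r, 52 and 36 without the 20-day Smurfs 1d-f and 1d-e, 34 without 40-day non-Smurf 1d-o and 28 without 40-day Smurf 1d-q, and it was 0 without any of 7 non-Smurfs (1d-a, 1d-b and M-1 of 20 days, 1d-m, 1d-n, 5h-c5 and M-13 of 40 days), with 1056 to 1317 genes at an unadjusted p under 0.05. Without non-Smurf 1d-o the 40-day effect called 103 genes.

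Among the genes with an interaction at that unadjusted p, effects that vanished with age outnumbered effects that grew. In what follows an effect is said to vanish where its size at 40 days, with either sign, is at most 0.25 of that at 20 days. This sorting is a description. Of the 1323 genes, 772 had an effect that vanished, 151 one that shrank, 397 one that changed sign and 3 one that grew with the same sign. These genes were chosen by the interaction, and over all 10318 genes the classes held 2700, 2879, 2825 and 1914. The mirror of vanishing, a 20-day size of at most 0.25 of that at 40 days, held 16 of the 1323 genes. That class was not counted over all genes. Counting changes of sign, 104 of the 1323 had an effect of larger size at 40 days, and 1219 one of smaller size, against 7050 smaller of the 10318. Of the 778 positive genes 777 had a negative effect at 20 days, and of the 545 negative genes 543 had a positive one. This split follows largely from the choice of genes, because the interaction contains the 20-day effect with its sign reversed. Over all 10318 genes 4302 had an effect below 0 at 20 days and 4472 had a positive interaction. The effect at 30 days lay between those at 20 and 40 days for 1178 of the 1294 genes that were also tested there. Genes chosen for a wide gap between these effects leave much room for that, and it was not counted over all genes. The difference of 40 against 20 days was larger in size in Smurfs than in non-Smurfs for 686 of the 778 positive and 355 of the 545 negative genes. Among the genes called at 30 days, which were not chosen by the interaction, this held for 85 of the 305 higher and 158 of the 212 lower genes.

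**Figure D3:**
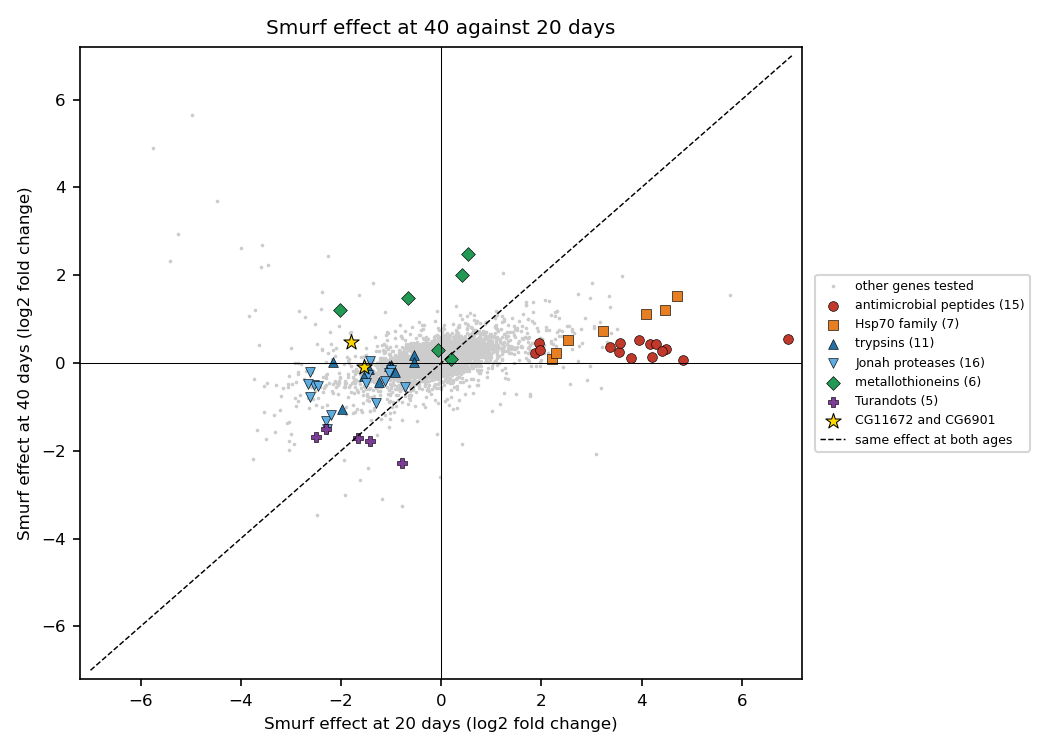
Smurf effect at 40 days (vertical axis, log2 fold change) against that at 20 days (horizontal axis) for the genes tested, with gene lists and the 2 called genes marked and a dashed line for equal effects. Antimicrobial peptides lie far to the right near 0 on the vertical axis, with a 40-day median of 0.33, or 1.74 without 40-day non-Smurf 1d-o. CG11672 and CG6901 lie to the left of 0 at −1.55 and −1.81 and near 0 at 40 days.

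CG11672 (FBgn0037563; chr3R:8289395-8290578, minus strand, BDGP6.54) was the called gene with the higher expression. It stood at 31.8, 25.8, 20.3 and 37.5 CPM in the 20-day non-Smurfs and at 10.2, 11.7, 7.42 and 9.38 CPM in the 20-day Smurfs. At 40 days the non-Smurfs ranged from 33.0 to 43.0 CPM (median 39.5) and the Smurfs from 28.6 to 51.8 CPM (median 34.4). The young groups were well apart and the old groups overlapped, and every 40-day Smurf, 1d-q and 1d-r included, was above every 20-day Smurf. The 30-day Smurfs were spread between 5.02 and 29.9 CPM around a median of 15, against 27.8 to 40.9 CPM in the 30-day non-Smurfs. The Smurf effect was −1.55 ± 0.19 (SE) at 20 days and −0.08 ± 0.15 at 40 days, with an interaction of 1.47 ± 0.24 and an adjusted p of 0.0461 (edgeR quasi-likelihood). From 20 to 40 days its difference was 1.90 ± 0.18 in Smurfs and 0.43 ± 0.17 in non-Smurfs.

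CG6901 (FBgn0038414; chr3R:16323415-16325128, plus strand) was called as well, at a much lower level. Its 20-day non-Smurfs stood at 2.40, 1.69, 2.16 and 2.19 CPM and its 20-day Smurfs at 0.291, 0.809, 0.742 and 0.461 CPM. At 40 days the non-Smurfs lay between 0.868 and 1.78 CPM (median 1.43) and the Smurfs between 1.36 and 3.19 CPM (median 1.89). The order of the group medians was therefore opposite at the 2 ages, with overlap at 40 days. The effect was −1.81 ± 0.30 at 20 days and 0.48 ± 0.23 at 40 days, with an interaction of 2.29 ± 0.38 (edgeR adjusted p = 0.0461). The gene overlaps Sulf1 on the other strand, and whether reads were counted by strand is not given in the sources used here, so its counts are uncertain. Both calls sat near the threshold: without the 3 low-scoring Smurfs the interactions were 1.46 and 2.18 with adjusted p of 0.0776 and 0.141. Over 32 alternatives for CG11672 and 31 for CG6901 the interaction stayed between 1.16 and 1.64 and between 1.7 and 2.53, with adjusted p from 4.6e-06 to 0.477 and from 7.0e-05 to 0.527. Leaving out any of the 20-day non-Smurfs 1d-a, 1d-b and M-1, the 20-day Smurf M-4 or the 40-day non-Smurfs 1d-m, 1d-n, 5h-c5 and M-13 ended both calls, with adjusted p between 0.0529 and 0.128, and leaving out 40-day Smurf 5h-c7 ended that of CG6901 (0.0528).

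Below these, no gene passed the adjustment. The genes that follow are given for their values, and those outside the gene lists were chosen after their values were seen. Counts within gene lists are to be read against the shares over all genes tested. At 20 days these were 4.47% called higher and 5.43% called lower. For the interaction at an unadjusted p under 0.05 they were 7.54% positive and 5.28% negative, and for the 40-day effect 9.36% at that p. Of the 30 genes with the smallest interaction p, 27 were positive, and 26 of the 30 had been called lower in Smurfs at 20 days. That share was 5.43% over all genes tested, but the interaction contains the 20-day effect, so the excess follows in part from the ranking. CG3906 and Cda9, a member of the chitin deacetylase family, missed the threshold narrowly with interactions of 2.50 ± 0.44 and 2.86 ± 0.51 (adjusted p = 0.0502 for both).

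Muc68D encodes a secreted mucin. It stood at 368, 352, 229 and 414 CPM in 20-day non-Smurfs and at 84.9, 66.5, 15.9 and 17.6 CPM in 20-day Smurfs. Its 40-day non-Smurfs ranged from 349 to 545 CPM (median 411) and its 40-day Smurfs from 285 to 521 CPM (median 344). All 6 old Smurfs thus lay above the highest young Smurf by a wide margin, and the old groups overlapped. At 30 days Smurfs ran from 2.24 to 232 CPM, with a median of 90.3 CPM, against 189 to 454 CPM in non-Smurfs. The Smurf effect was −2.85 ± 0.41 at 20 days, −1.60 ± 0.73 at 30 days and −0.25 ± 0.31 at 40 days, and leaving out the 3 low-scoring Smurfs left the 40-day effect at −0.27.

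The cytochrome P450 gene Cyp4ac1 showed the same order. It stood at 28.8, 29.1, 20.3 and 18.7 CPM in 20-day non-Smurfs, at 7.48, 8.99, 10.3 and 9.73 CPM in 20-day Smurfs, and at medians of 26.9 and 25.3 CPM in 40-day non-Smurfs and Smurfs. No 40-day Smurf was under 22.3 CPM, so the old Smurfs lay within the range of the non-Smurfs, 18.9 to 33.5 CPM, but for 5h-c8 at 38.6 CPM. Its effects were −1.38 ± 0.21, −1.04 ± 0.27 and 0.01 ± 0.17 at 20, 30 and 40 days. Cyp4ac1 overlaps tkv on the other strand. Of the 76 cytochrome P450 genes tested, a family of oxidases of hormones, lipids and toxins, 21 had been called lower and 6 higher at 20 days, and 21 had a positive and 3 a negative interaction at an unadjusted p under 0.05. The median effect of the family was −0.25 at 20 days and 0.04 at 40 days. Cyp9f2 (−0.59 to 0.01), Cyp6a18 (−1.14 to −0.12) and Cyp4e1 (−1.17 to −0.08) vanished alike between 20 and 40 days. The UDP-glycosyltransferases, which tag small molecules with sugars, held 7 positive and no negative genes at that p among 30 tested. Ugt301D1 went from −0.68 ± 0.13 at 20 days to 0.09 ± 0.11 at 40 days.

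Acid and lipid genes of the gut and fat body were also among these. Vha100-4 encodes a membrane subunit of the vacuolar proton pump and overlaps cona. It stood at 14.2, 11.9, 11.8 and 23.5 CPM in 20-day non-Smurfs and at 4, 7.28, 3.34 and 1.84 CPM in 20-day Smurfs, with 40-day medians of 12.9 and 11.6 CPM. The effect was −1.86 ± 0.33 at 20 days and 0.05 ± 0.26 at 40 days, and the old groups overlapped fully. In the 21 genes of the pump 7 had a positive and 1 a negative interaction at an unadjusted p under 0.05, with a small median effect of −0.12 at 20 days and 0.03 at 40 days. The homeobox gene lab, needed for the acid-secreting copper cells of the midgut, had effects of −1.52 ± 0.29 and 0.17 ± 0.23 at the 2 ages, at levels of no more than 2.05 CPM. The lipoprotein precursor gene apolpp, whose product carries lipids between organs, stood at 3431, 3090.3, 2351 and 3849 CPM in 20-day non-Smurfs and at 576, 936, 614 and 969 CPM in 20-day Smurfs. Its 40-day Smurfs ranged from 1170.5 to 3183 CPM with a median of 1676, all above the young Smurfs, against 2059 to 3428 CPM in 40-day non-Smurfs. Its effect was −2.02 ± 0.28 and −0.35 ± 0.22, and it overlaps Zyx. Of the Npc2 family of sterol-binding proteins, 3 of 7 genes had a positive interaction at that p, among them Npc2g at −1.43 ± 0.30 and −0.31 ± 0.24. Without the 3 low-scoring Smurfs its 40-day effect was −0.61.

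**Figure D4:**
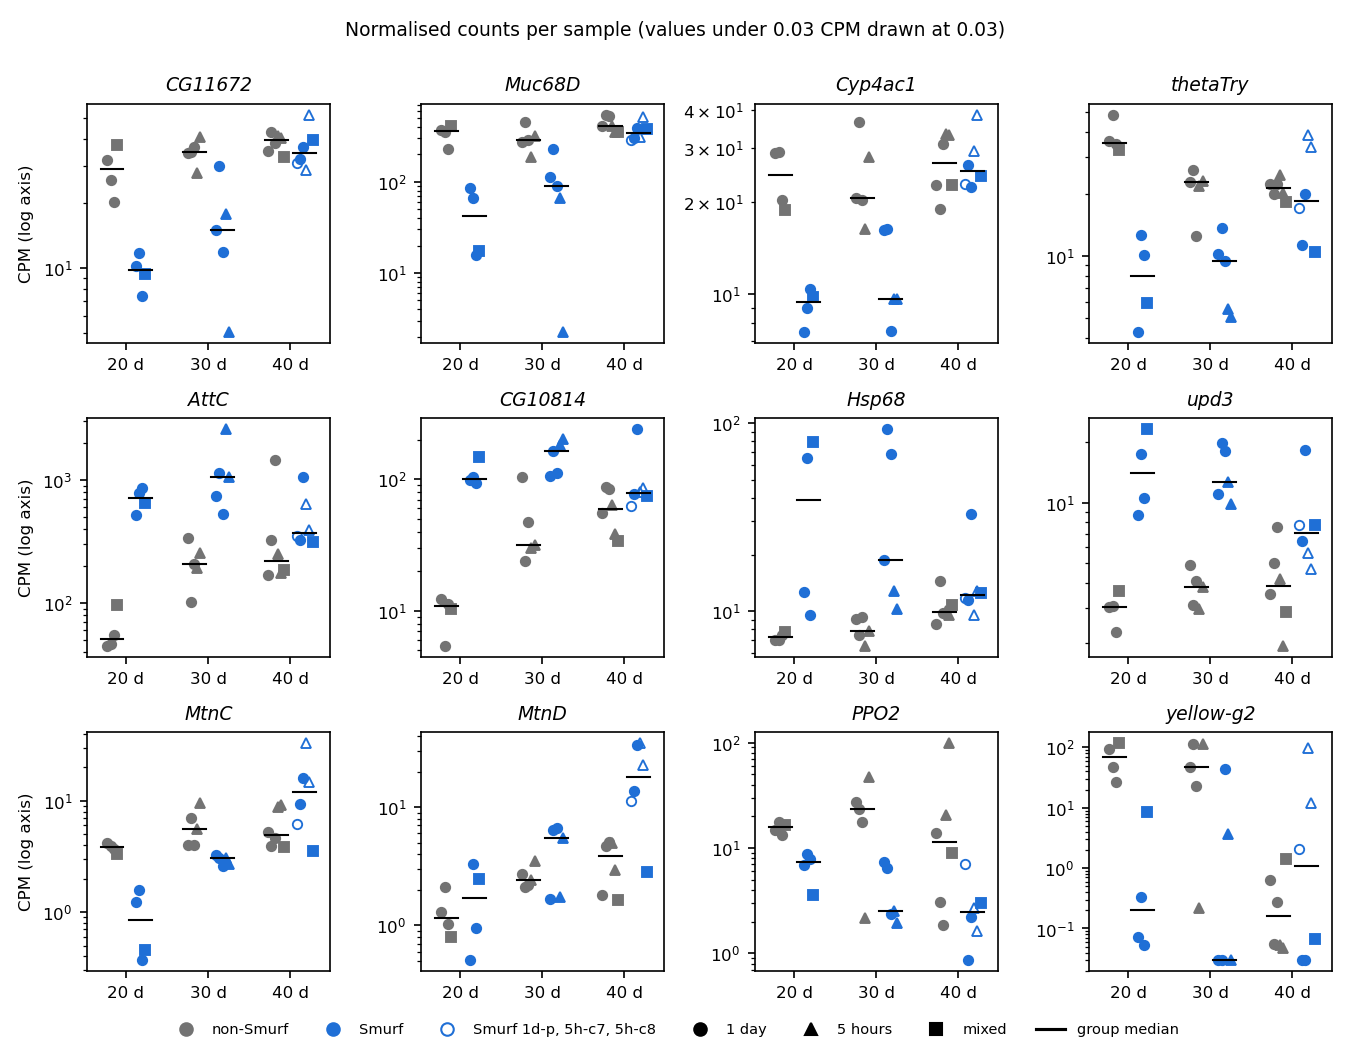
CPM (log axis) of 12 genes in every sample of 20, 30 and 40 days, non-Smurfs and Smurfs apart, with the 3 low-scoring Smurfs drawn hollow and values under 0.03 CPM drawn at 0.03. In CG11672, Muc68D and Cyp4ac1 the 40-day groups overlap and all 40-day Smurfs lie above the 20-day Smurfs, in AttC the 40-day non-Smurf 1d-o stands highest of its group at 1465 CPM, and in Hsp68 and upd3 Smurf 1d-r stands highest of the 40-day Smurfs at 32.7 and 18.4 CPM.

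Digestive protease genes were lower in young Smurfs, and how far their effect vanished at 40 days turned on the low-scoring Smurfs. Of the 11 trypsins tested, 8 had been called lower at 20 days, and 8 had a positive interaction at an unadjusted p under 0.05. Their median effect was −1.03 at 20 days, −0.61 at 30 days and −0.10 at 40 days. The trypsin thetaTry stood at 36, 48.2, 34.7 and 32.6 CPM in 20-day non-Smurfs and at 4.29, 12.6, 10.2 and 5.93 CPM in 20-day Smurfs. At 40 days the non-Smurfs lay between 18.3 and 24.7 CPM, while the Smurfs stood at 17.0 (1d-p), 11.3 (1d-q), 20.0 (1d-r), 38.6 (5h-c7), 33.6 (5h-c8) and 10.5 CPM (M-16). The 5-hour Smurfs were thus above all 40-day controls, and 1d-p, 1d-q and M-16 below them. Its effect of −2.16 ± 0.37 at 20 days became 0.02 ± 0.29 at 40 days, or −0.60 without the 3 low-scoring Smurfs, and without these the trypsin median at 40 days was −0.62. The Jonah proteases, serine proteases of the midgut, gave medians of −1.85, −1.56 and −0.49 over 16 genes, with a 40-day median of −1.76 without these 3 samples. Of the 16, 6 had been called lower at 20 days and 6 had a positive interaction at that p. In the mixed and 1-day samples alone the 40-day medians were −0.52 for trypsins and −1.00 for Jonah proteases. Collection time and low score overlap here, because 5h-c7 and 5h-c8 are among the 3 low-scoring Smurfs and no 5-hour sample was taken at 20 days. The near-identical Jon99C copies may share reads.

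The effect on yolk proteins, which the egg stores as food, turned on the same samples. Yp1 stood at 9341, 9162, 6494 and 10483 CPM in 20-day non-Smurfs and at 1150.5, 2476, 2160.0 and 2219.8 CPM in 20-day Smurfs. At 40 days it stood at 7394 (1d-p), 1533 (1d-q), 1809.8 (1d-r), 5558 (5h-c7), 9986 (5h-c8) and 5034 CPM (M-16) in Smurfs, against 3675 to 12125 CPM in non-Smurfs. Smurfs 1d-q and 1d-r were as low as young Smurfs, while the other 4 lay within the range of the controls. The effect was −2.12 ± 0.48 at 20 days and −0.42 ± 0.37 at 40 days, or −1.31 without the 3 low-scoring Smurfs. The 3 yolk protein genes had been called lower at 20 days and had a positive interaction at an unadjusted p under 0.05. The median over these and the yolk receptor gene was −2.24 at 20 days and −0.36 at 40 days, the latter −0.97 in the mixed and 1-day samples alone.

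The 40-day effects of eggshell genes turned on these libraries as well, and for some the sign did. The gene yellow-g2, expressed in follicle cells that build the eggshell, stood at 93.0, 48.1, 26.9 and 119 CPM in 20-day non-Smurfs and at 0.0727, 0.333, 0.0530 and 8.58 CPM in 20-day Smurfs. At 40 days no non-Smurf exceeded 1.39 CPM, and the Smurfs stood at 2.10 (1d-p), 0 (1d-q), 0 (1d-r), 99.4 (5h-c7), 12.2 (5h-c8) and 0.0676 CPM (M-16). Its interaction of 10.61 ± 2.39 came to 1.20, and its 40-day effect of 5.64 to −3.76, without the 3 low-scoring Smurfs. CG43333, with the largest interaction among the genes given here (10.66 ± 1.99), had an interaction of 6.02 without them (edgeR adjusted p = 0.424), and its 40-day effect of 4.90 came to 0.25. Its mean log2 CPM over the 20 samples was only −0.35, so these values rest on few counts. The 9 chorion genes, none of them called at 20 days, had a median effect of −2.51 at 20 days, 0.09 at 40 days and −4.59 at 40 days without the 3 low-scoring Smurfs. Their summed level was 3.92 to 1182 CPM in 20-day Smurfs and 734 to 2757 CPM in 20-day non-Smurfs, so these groups overlapped. SEs were wide: the chorion gene Cp36 had −2.83 ± 1.95 at 20 days, and −7.50 ± 2.84 at 40 days without the 3 low-scoring Smurfs. The 7 vitelline membrane genes, all called lower at 30 days and none at 20 days, had 40-day medians of −1.61 with and −6.47 without these Smurfs. In the mixed and 1-day samples alone the 40-day medians were −2.34 for chorion and −2.13 for vitelline membrane genes. Germline genes, 13 in the list, showed no interaction at an unadjusted p under 0.05.

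Antimicrobial peptide genes, high in young Smurfs, had little or no Smurf effect at 40 days. Of 15 tested, 11 had been called higher in Smurfs at 20 days and 11 at 30 days, and none reached even an unadjusted p under 0.05 at 40 days. The interaction was negative at that p for 14 of the 15, and DESeq2 called 8. Their median effect was 3.95 at 20 days, 2.94 at 30 days and 0.33 at 40 days. The median difference of 40 against 20 days was −0.89 in Smurfs and 2.83 in non-Smurfs. Much of the latter lay in 1 library: without 40-day non-Smurf 1d-o the median difference in non-Smurfs was 1.36, the 40-day median 1.74 and the median interaction −2.11. Without the 3 low-scoring Smurfs the 40-day median was 0.71.

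AttC, an attacin gene controlled by the Imd pathway, shows this. It stood at 44.6, 46.8, 54.5 and 97.1 CPM in 20-day non-Smurfs and at 514, 781, 864 and 651 CPM in 20-day Smurfs. The 40-day non-Smurfs stood at 169.6 (1d-m), 324 (1d-n), 1465 (1d-o), 251 (5h-c5), 174 (5h-c6) and 186 CPM (M-13), and the 40-day Smurfs at 316 to 1052 CPM with a median of 372. Every old non-Smurf was thus above every young one, 1d-o was above every Smurf of 20 and 40 days, and the old groups overlapped. The difference of 40 against 20 days was 2.83 ± 0.61 in non-Smurfs and −0.47 ± 0.54 in Smurfs. The interaction was −3.31 ± 0.79 (adjusted p = 0.105). The effect at 40 days was 0.25 ± 0.49, and 1.22 without 1d-o. AttC overlaps CG4744, and the near-identical AttA and AttB may share reads.

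Other members went the same way. The diptericin gene DptB had effects of 4.20 ± 0.91 at 20 days and 0.14 ± 0.64 at 40 days, the latter 1.74 without non-Smurf 1d-o. Drs, the Toll target whose promoter drives the reporter of this line, had 1.87 ± 0.61, 1.82 ± 0.29 and 0.23 ± 0.48 at 20, 30 and 40 days, the last 0.48 without 1d-o. Regulators of the pathways had smaller effects that narrowed likewise. Of 19 Toll and Imd signalling genes 6 had been called higher at 20 days and 6 had a negative interaction at an unadjusted p under 0.05, with medians of 0.22 and 0.05. The Imd inhibitor gene pirk went from 1.39 ± 0.27 to 0.32 ± 0.21, and the Toll ligand gene spz from 0.49 ± 0.11 to 0.05 ± 0.09. Of 11 peptidoglycan recognition proteins, which sense bacterial walls, 5 had been called higher at 20 days and 3 had a negative interaction at that p, with medians of 0.76 and 0.21. PGRP-SD went from 1.25 ± 0.28 to 0.27 ± 0.23 and PGRP-LF, a negative regulator, from 1.02 ± 0.20 to 0.37 ± 0.16. The bomanins, short Toll-induced peptides, had medians of 1.00 and 0.34 over 12 genes, with 3 negative and 1 positive (BomS6) interaction at that p. Non-Smurf 1d-o also bore on these: without it the 40-day effect was 0.60 for both pirk and PGRP-SD, and the 40-day median was 0.59 for the bomanins and 0.42 for the peptidoglycan recognition proteins.

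CG10814 and ple also lay higher in young Smurfs. CG10814 stood at 12.3, 5.40, 11.3 and 10.3 CPM in 20-day non-Smurfs and at 98.2, 103, 93.1 and 148 CPM in 20-day Smurfs. In 40-day non-Smurfs it ranged from 33.9 to 86.5 CPM and in 40-day Smurfs from 62.7 to 241 CPM. Its Smurf effect was 3.50 ± 0.43 at 20 days and 0.78 ± 0.31 at 40 days, the latter 1.13 without the 3 low-scoring Smurfs. Its difference of 40 against 20 days was 2.61 ± 0.40 in non-Smurfs and −0.11 ± 0.35 in Smurfs, with an interaction of −2.72 ± 0.52. The gene ple, the tyrosine hydroxylase gene of dopamine synthesis, had a median of 17.2 CPM in 20-day non-Smurfs, 114 CPM in 20-day Smurfs, 36.3 CPM in 40-day non-Smurfs and 41.5 CPM in 40-day Smurfs. The old groups of ple overlapped, with non-Smurf 1d-o at 88.0 and Smurf 1d-r at 119 CPM the highest. The flight muscle actin gene Act88F had effects of 1.77 ± 0.22 at 20 days, 0.21 ± 0.28 at 30 days and 0.42 ± 0.18 at 40 days, or 0.64 at 40 days without the 3 low-scoring Smurfs. Without these the 40-day effect of ple was 0.77, against 0.38 ± 0.34 with them.

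Hsp70 family genes were high in young Smurfs, though unevenly for Hsp68, which at 40 days was high mainly in 1 Smurf sample. At 20 days the Smurfs and non-Smurfs overlapped in Hsp70Aa and Hsp70Ab. All 7 Hsp70 family genes tested had been called higher at 20 days, and all 7 had a negative interaction at an unadjusted p under 0.05, with median effects of 3.23, 2.79 and 0.73 at 20, 30 and 40 days. Hsp68, a stress-induced chaperone gene, stood at 6.98 to 7.71 CPM in 20-day non-Smurfs and at 12.7, 65.3, 9.59 and 79.7 CPM in 20-day Smurfs. In 40-day Smurfs it stood at 32.7 CPM in 1d-r and at 9.51 to 12.8 CPM in the other 5, against 8.57 to 14.5 CPM in non-Smurfs. The effect was 2.53 ± 0.53 at 20 days and 0.53 ± 0.41 at 40 days. Hsp70Bb had 4.46 ± 0.88 and 1.20 ± 0.65. Without the 3 low-scoring Smurfs the 40-day effects were 0.85 for Hsp68 and 1.86 for Hsp70Bb. The small heat shock proteins were mixed, with 3 of 10 called higher at 20 days, 4 below 0 there and medians of 0.31 and −0.05 at 20 and 40 days. Reads of near-identical Hsp70 copies may be split between them, and Hsp68 overlaps CG6000.

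The cytokine gene upd3 kept part of its effect. It stood at 3.01, 3.06, 2.28 and 3.65 CPM in 20-day non-Smurfs and at 8.65, 17.5, 10.5 and 23.3 CPM in 20-day Smurfs. At 40 days the non-Smurfs ranged from 1.93 to 7.56 CPM (median 3.85) and the Smurfs from 4.66 to 18.4 CPM (median 7.07), with 1d-r highest. The effects were 2.34 ± 0.44, 1.93 ± 0.23 and 1.03 ± 0.35 at 20, 30 and 40 days. Socs36E, a target and inhibitor of JAK-STAT signalling, went from 1.53 ± 0.30 to 0.46 ± 0.24 (0.70 without the 3 low-scoring Smurfs), and dome, the receptor gene, from 0.40 ± 0.09 to −0.02 ± 0.07. Of the 6 JAK-STAT genes tested, 4 had been called higher at 20 days and 4 had a negative interaction at an unadjusted p under 0.05. The glutathione S-transferases, detoxifying enzymes, were mixed: 10 of 33 had been called higher and 3 lower at 20 days. They had 8 negative and 2 positive interactions at that p, where 5.28% of all genes were negative and 7.54% positive.

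**Figure D5:**
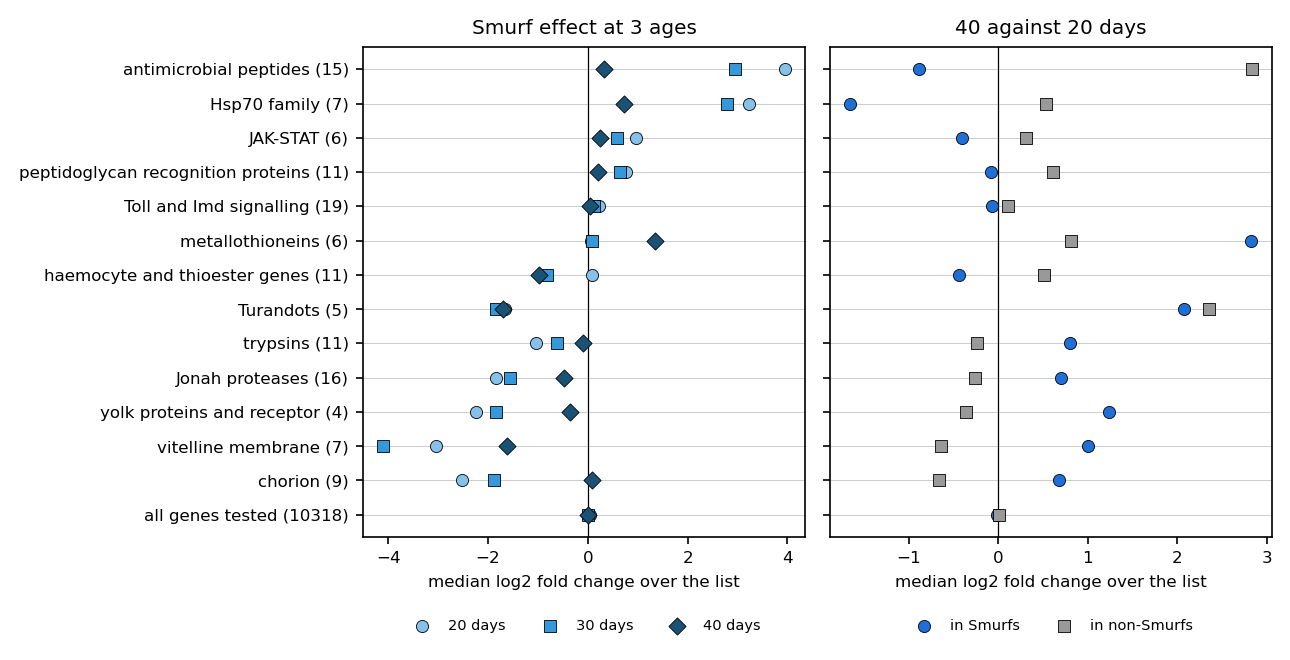
Median log2 fold change over each gene list (number of genes tested at 20 and 40 days in brackets): the Smurf effect at 20, 30 and 40 days, and the difference of 40 against 20 days in Smurfs and in non-Smurfs. At 30 days 4 Turandots, 10 haemocyte and thioester genes and 10129 of all genes were tested. Antimicrobial peptides go from 3.95 to 0.33 (1.74 without 1d-o), with 2.83 for 40 against 20 days in non-Smurfs (1.36 without 1d-o). Trypsins go from −1.03 to −0.10 with 0.81 in Smurfs, and metallothioneins from 0.07 to 1.34.

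Effects larger in size at 40 days were few, 104, among the 1323 genes with an interaction at an unadjusted p under 0.05. Of these, 3 kept their sign, whereas 1914 of all 10318 genes tested had an effect that grew with the same sign. The metallothioneins, small metal-binding proteins, had a median effect of 0.07 at 20 days, 0.08 at 30 days and 1.34 at 40 days over 6 genes. At 40 days 4 of the 6 were higher at an unadjusted p under 0.05, and 3 had a positive interaction at that p. MtnC stood at 4.18, 3.95, 3.66 and 3.32 CPM in 20-day non-Smurfs and at 1.24, 1.57, 0.371 and 0.461 CPM in 20-day Smurfs. In 40-day non-Smurfs it ranged from 3.87 to 9.23 CPM, and in 40-day Smurfs it stood at 6.12 (1d-p), 9.44 (1d-q), 16.0 (1d-r), 33.1 (5h-c7), 14.7 (5h-c8) and 3.51 CPM (M-16). Its effect changed sign from −2.02 ± 0.60 and −1.03 ± 0.24 at 20 and 30 days to 1.20 ± 0.42 at 40 days, with an interaction of 3.22 ± 0.73 (adjusted p = 0.0872). Without the 3 low-scoring Smurfs its 40-day effect was 0.71 and its interaction 2.73. Its difference of 40 against 20 days was 3.89 ± 0.58 in Smurfs and 0.67 ± 0.49 in non-Smurfs. MtnD, one of the 3 genes whose effect grew, stood at 0.509 to 3.28 CPM in 20-day Smurfs and at 2.84 (M-16) to 34.9 CPM (5h-c7) in 40-day Smurfs, against 1.62 to 5.11 CPM in 40-day non-Smurfs. All 40-day Smurfs but M-16 were above the controls. Its effects were 0.54 ± 0.69, 0.77 ± 0.40 and 2.47 ± 0.50 at 20, 30 and 40 days.

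Some effects with small p at 40 days were of like size or larger there than at 20 days, though none was called at 40 days. CG11893 had the smallest p at 40 days, with an adjusted p of 0.113. It stood at 19, 22.8, 25.9 and 26.3 CPM in 20-day Smurfs against 17.0, 15.7, 20.6 and 13.8 CPM in 20-day non-Smurfs, and at 25.7 to 54.1 CPM in 40-day Smurfs against 13.5 to 22.5 CPM in 40-day non-Smurfs. The old groups did not overlap, and its effects were 0.51 ± 0.22, 0.88 ± 0.19 and 1.07 ± 0.18. CG5399 had 0.69 ± 0.18, 0.64 ± 0.09 and 0.72 ± 0.15, and the nicotinic receptor subunit gene nAChRbeta3, which overlaps Ets21C, had −1.21 ± 0.30, −1.15 ± 0.42 and −1.28 ± 0.25.

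The Turandots, secreted stress peptides, were lower in Smurfs at each age, with medians of −1.65, −1.84 and −1.7 over 5 genes, of which 4 were tested at 30 days. All 5 had an unadjusted p under 0.05 at 40 days. TotX stood at 26.5, 20.1, 16.9 and 9.37 CPM in 20-day non-Smurfs and at 1.45, 4.57, 2.22 and 4.26 CPM in 20-day Smurfs, and had 40-day medians of 33.7 and 7.43 CPM; it overlaps Grik. The haemocyte and thioester genes, which act in cellular and humoral immunity, had medians of 0.08, −0.82 and −0.98 over 11 genes, of which 10 were tested at 30 days. At 40 days 7 were lower at an unadjusted p under 0.05. In PPO2, the prophenoloxidase gene of crystal cells, the 40-day non-Smurf 5h-c6 stood at 99.5 CPM and the others at 1.84 to 20.4 CPM. Over the 4 Turandots and the 10 haemocyte and thioester genes that could also be tested in the mixed and 1-day samples alone, the 40-day medians were −0.35 and −0.42 there, against −1.69 and −0.92 in all samples. The 20-day medians of these genes were −1.98 and −0.41 in both sets of samples.

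Housekeeping lists held few interactions at an unadjusted p under 0.05, which 12.8% of all genes had. None of the 26 spliceosome, 32 proteasome and 18 cell cycle genes had one, and 1 each did among 84 cytosolic and 71 mitochondrial ribosomal protein genes and 34 DNA replication genes. The signs were less even: all 18 cell cycle and 29 of the 34 DNA replication genes had a negative interaction, against 5846 of all 10318 genes. The median interactions of the cell cycle and DNA replication lists were small, −0.12 and −0.10, against −0.03 over all genes. In the mixed and 1-day samples alone the medians of these lists were −0.03 and −0.06, and in the 1-day samples alone 0.03 and 0.01. All 18 chromatin genes that the study named also had a negative interaction, 2 of them at that p, with median effects of 0.10 at 20 days and −0.07 at 40 days. The study named them as lower in 40-day than in 20-day Smurfs of this same series. The interaction contains that difference, so their sign follows at least in part from the choice of genes. The 78 genes of the respiratory complexes had 8 positive interactions at an unadjusted p under 0.05, near the share of 7.54% over all genes. Their median effect was −0.24 at 20 days and −0.09 at 40 days.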

How the data were processed

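RNA-Seq counts were analysed as deposited. Per the labels, the authors made stranded mRNA libraries, checked reads with FastQC, aligned them to BDGP6 with HISAT2 and counted reads per gene with featureCounts; strand and multi-mapping settings are not given in the sources used here. The table held 17737 genes, of which 17599 matched the BDGP6.54 annotation used for names, overlaps and coordinates. edgeR 4.0.16 in R 4.3.3 (TMM, filterByExpr, quasi-likelihood test, Benjamini-Hochberg adjustment) was fitted to the 20 samples of 20 and 40 days in 4 groups, without covariates, and separately to the 10 samples of 30 days; the 2 samples labelled 32 days entered alternatives alone. SE is the size of the log2 fold change over the square root of F. Alternatives were DESeq2 1.42.0, limma 3.58.1, other filters, size factors and sample sets, and each sample left out.

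The members and the 49 gene lists were chosen with earlier results of these data known; 13 list entries matched no gene. By rule, named genes were the 12 highest and 12 lowest called interactions with a mean log2 CPM of at least 2, 6 genes called at both ages with opposite sign, 6 called at 40 days alone, and per list up to 4 members with the smallest interaction p. Only CG11672 met the first and no gene the next criteria, so genes named outside the rule per list were chosen after their values were seen. No sequence is shown, and total counts limit precision for genes of few counts.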

Additional observations from a re-analysis of the deposited data

Results flagged for a closer look

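The interaction of age and Smurfness passed its test for CG11672, at a log2FC of 1.47, and for CG6901, at 2.29: these were the only genes whose Smurf effect differed between 20 and 40 days by the edgeR test, and DESeq2 called 256.

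In 12 of the 126 groups of samples compared, over the genes plotted or given by sample, 1 sample lay far from the others of its group; chance gives about 1 in 20. At 40 days non-Smurf 1d-o stood at 1465 CPM in AttC, with the next at 324 CPM, and at 403 CPM in AttB, with the next at 58.5 CPM. Smurf 1d-r of 40 days stood at 272 CPM in AttB (next 114), at 32.7 CPM in Hsp68 (next 12.8), at 18.4 CPM in upd3 (next 7.77) and at 241 CPM in CG10814 (next 85.7). Thus 6 of the 12 fell in these 2 samples. The 40-day non-Smurf 5h-c6 stood at 20.7 CPM in nAChRbeta3 (next 14). At 30 days Smurf 5h-c4 was low in Muc68D at 2.24 CPM (next 66.4), non-Smurf 1d-i low in thetaTry at 12.5 CPM (next 21.8), non-Smurf 5h-c1 low in yellow-g2 at 0.214 CPM (next 22.6) and non-Smurf 1d-g high in CG11893 at 19.99 CPM (next 15.8). The 20-day non-Smurf 1d-b was low in Hsp70Bb at 0.323 CPM (next 0.66).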

How the results depend on the processing

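The interaction called 2 genes. It called 32 with RLE size factors, 256 with DESeq2, 25 without a filter, 0 with at least 10 counts in every sample (1157 at an unadjusted p under 0.05), 27 with 32 samples in 6 groups, 16 with a slope on age, 12 with collection time as a term, 14 with collection event as a block, 1 in mixed and 1-day samples, 4 in 1-day samples and 0 without the 3 low-scoring Smurfs (690 at that unadjusted p). limma voom with sample quality weights, added after seeing the data, called 1136, and 2836 and 39 genes at 20 and 40 days. The Smurf effect at 20 days called 1021 genes, 348 in 1-day samples and 1898 in a fit of 20 days alone (added after seeing the data); RLE split them 365 higher to 712 lower. At 40 days the main count of 0 became 57 with DESeq2, 5 with 32 samples, 2 in 1-day samples and 2 without the 3 low-scoring Smurfs. At 30 days 518 became 1450 with the 32-day samples and 1196 with DESeq2. Leaving out 1 sample gave 0 to 102 genes for the interaction, 548 to 1274 at 20 days, 0 to 103 at 40 days and 171 to 823 at 30 days, the last with 171, 179 and 212 without the non-Smurfs 1d-i, 5h-c2 and 1d-h, 237, 272 and 303 without the Smurfs 5h-c3, 5h-c4 and 1d-l and 823 without Smurf 1d-j. At 20 days the count was 548 without Smurf M-4, and 593 and 636 without non-Smurfs 1d-b and 1d-a. For the interaction it was also 18 without 20-day non-Smurf 1d-c, 12 without 40-day Smurf M-16, 9 without 40-day non-Smurf 5h-c6 and 6 without either 20-day Smurf 1d-d or 40-day Smurf 1d-p.

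Over the 102 genes given or considered, 3246 values under alternatives, 1 measure per gene (the interaction or, for some, the 40-day effect), held 6 reversals and 26 losses of a call, and 374 values passed the threshold that had not. Reversed were the interaction of PPO2 (0.0916 in mixed and 1-day, 0.0270 in 1-day samples), the 40-day effect of TotA (0.030 and 0.547 in the same sets) and the interactions of the chorion genes Cp36 (−4.67) and Cp38 (−4.47) without the 3 low-scoring Smurfs. Outside this count, the 40-day effects of yellow-g2 (5.64 to −3.76), Cp7Fc (2.95 to −4.70) and Cp7Fb (2.33 to −5.28) also changed sign without these Smurfs. The causes were not tested. No paired analysis was possible because the replicate labels are unique to each sample; the collection event, shared by Smurf and non-Smurf sets, was a block instead, with 1119 genes called at 20 days and 0 at 40 days (1131 at an unadjusted p under 0.05). Depth limits genes of few counts such as CG6901.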
